A study of Mus musculus with 9 samples.

Results

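The inhibitory ligands of tumors compared here are 9 genes, Cd274 (PD-L1), Pdcd1lg2 (PD-L2), Cd276 (B7-H3), Vtcn1 (B7-H4), Vsir (VISTA), Lgals9 (galectin-9), Pvr (CD155), Nectin2 (CD112) and Tnfrsf14 (HVEM). These genes are grouped here as ligands that can restrain T cells, and some of their proteins also bind activating receptors. They were found by gene symbol among the 52163 genes named in the expression tables of 9 tumors. All 9 were found, and 6 of them had at least 1 FPKM in every tumor. FPKM is the number of sequenced fragments of a gene scaled to its transcript length and to all mapped fragments, so levels of different genes can be compared on this scale.

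The tumors came from Hepa1-6, a mouse hepatoma line. Pieces of tumors grown under the skin from this single line were implanted in the left liver lobe of male C57BL/6 mice. The mice received intraperitoneal PBS (3 tumors) or anti-PD-1 antibody at 5 mg per kg (6 tumors), in 5 injections spaced 4 days apart from day 10 to day 26. Tumors were taken on day 27 and surrounding tissue was removed, but how much liver tissue stayed with each tumor was not measured. Of the antibody-treated tumors, the 3 largest were kept as nonresponsive and the 3 smallest as responsive, and those in between were left out, so both groups had the same treatment and were picked by outcome. Each tumor is 1 mouse, and the comparisons ask whether the ligands differed in RNA level between responsive and nonresponsive tumors and between either of them and PBS tumors.

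PD-L1 and PD-L2 bind PD-1, the receptor on activated T cells that the antibody blocks. Interferon-gamma, released by activated T cells and natural killer cells, induces PD-L1 on tumor cells and macrophages through the kinases JAK1 and JAK2 and the transcription factor IRF1. The other ligands act through other receptors: CD155 and CD112 are shared by the inhibitory TIGIT and the activating CD226, galectin-9 binds TIM-3, HVEM binds BTLA, and VISTA is carried mainly by myeloid cells. In the liver, hepatocytes and macrophages can carry several of these proteins as well as the tumor cells.

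Promoter sequences are shown for Cd274, the ligand of the receptor that the antibody blocks, and for the only members looked up whose promoters hold the pattern GAAA, any 2 bases and GAAA again, the core bound by factors of the IRF family. The 250 bases before each start site were read from RefSeq (GRCm38.p6) and searched on both strands, and read from the opposite strand the pattern is TTTC, any 2 bases and TTTC. Capitals mark matches, and each sequence lies directly upstream of the first exon of its gene and is given on the gene's own strand.
Cd274, at chr19:29367188-29367437 on the plus strand: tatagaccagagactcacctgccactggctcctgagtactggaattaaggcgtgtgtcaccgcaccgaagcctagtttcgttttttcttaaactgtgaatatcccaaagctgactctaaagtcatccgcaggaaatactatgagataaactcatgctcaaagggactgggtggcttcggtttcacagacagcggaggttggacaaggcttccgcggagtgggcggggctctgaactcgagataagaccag
Lgals9, at chr11:78984925-78985174 on the minus strand: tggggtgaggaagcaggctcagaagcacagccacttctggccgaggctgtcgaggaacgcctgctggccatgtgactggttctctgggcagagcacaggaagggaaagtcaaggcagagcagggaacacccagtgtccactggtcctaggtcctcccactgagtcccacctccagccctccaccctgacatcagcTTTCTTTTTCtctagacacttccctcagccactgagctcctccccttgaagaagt
Tnfrsf14, at chr4:154928078-154928327 on the minus strand: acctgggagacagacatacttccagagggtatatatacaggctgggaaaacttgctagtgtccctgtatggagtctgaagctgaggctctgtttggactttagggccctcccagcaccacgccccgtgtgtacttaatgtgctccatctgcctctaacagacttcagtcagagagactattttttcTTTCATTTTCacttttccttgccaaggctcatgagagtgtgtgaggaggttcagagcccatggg
The match begins 55 bases before the start of Lgals9 and 64 bases before that of Tnfrsf14, and no match lies in the window of Cd274. Of the 8 members in the table, 2 held the pattern. It was present in 2.98% of all 32851 windows of this length and, counted by gene, for 3.46% of the 27025 genes they cover. Of the 12 interferon-gamma target genes that could be looked up, 8 held it. A match of letters is a description and not a measured binding site.

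Several properties of the tables touch the members. Genes listed at 0 can be failed estimates: of 8433 genes with at least 10 FPKM in at least 5 tumors, 448 (5.31%) were listed at 0 in 1 or more of the tumors. In some tumors a gene and its neighbor share 1 entry, which is stated beside the members concerned. PBS tumor 1, nonresponsive tumor 1 and responsive tumor 1 stood apart, with 151, 55 and 58 genes under 2 FPKM that were at 20 FPKM or more in at least 6 other tumors, against 20 to 36 such genes in each of the rest. PBS tumor 1 also held the most genes listed at 0, 157 of the 8433. Nonresponsive tumor 1 and responsive tumor 1 shared part of their pattern. Krt19, a keratin of bile duct and hepatoma cells, was at 1.47 and 5.82 FPKM in these and at 51.6 to 212 FPKM in the other 7, and Afp (alpha-fetoprotein, a marker of hepatoma) at 0.321 and 0.646 against 4.40 to 56.5 FPKM. In all, 30 genes were under 2 FPKM in both and at 20 FPKM or more in at least 6 others, among them Ido1, the tryptophan-degrading enzyme, at 0.410 and 0.112 FPKM against 43.3 to 132. Depth is unknown in absolute terms, and relative to PBS tumor 1 it was 0.936 to 1.07. This was read from the bounds given with each FPKM value, in entries where they gave a low, near whole number of fragments. Such entries were 17.3% to 22.3% of those tried, and 84 to 136 of them could be compared with PBS tumor 1. In bulk RNA, fewer cells of a type and less RNA per cell cannot be told apart.

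Lgals9 and Cd274 were the highest of the 9 genes in every group. Lgals9 averaged 124 FPKM over the 9 tumors and Cd274 78.8 FPKM. Below them came Vsir at 42.8, Pvr at 27.8, Tnfrsf14 at 21.9 FPKM and Cd276 close under it, whose ranges over tumors overlapped each other. Vtcn1 was lowest at 1.14 FPKM, and Nectin2 and Pdcd1lg2 are left out of this order because they hold listed zeros. Cd274 was higher than Lgals9 in 1 of the 9 tumors, nonresponsive tumor 1.

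**Figure D1:**
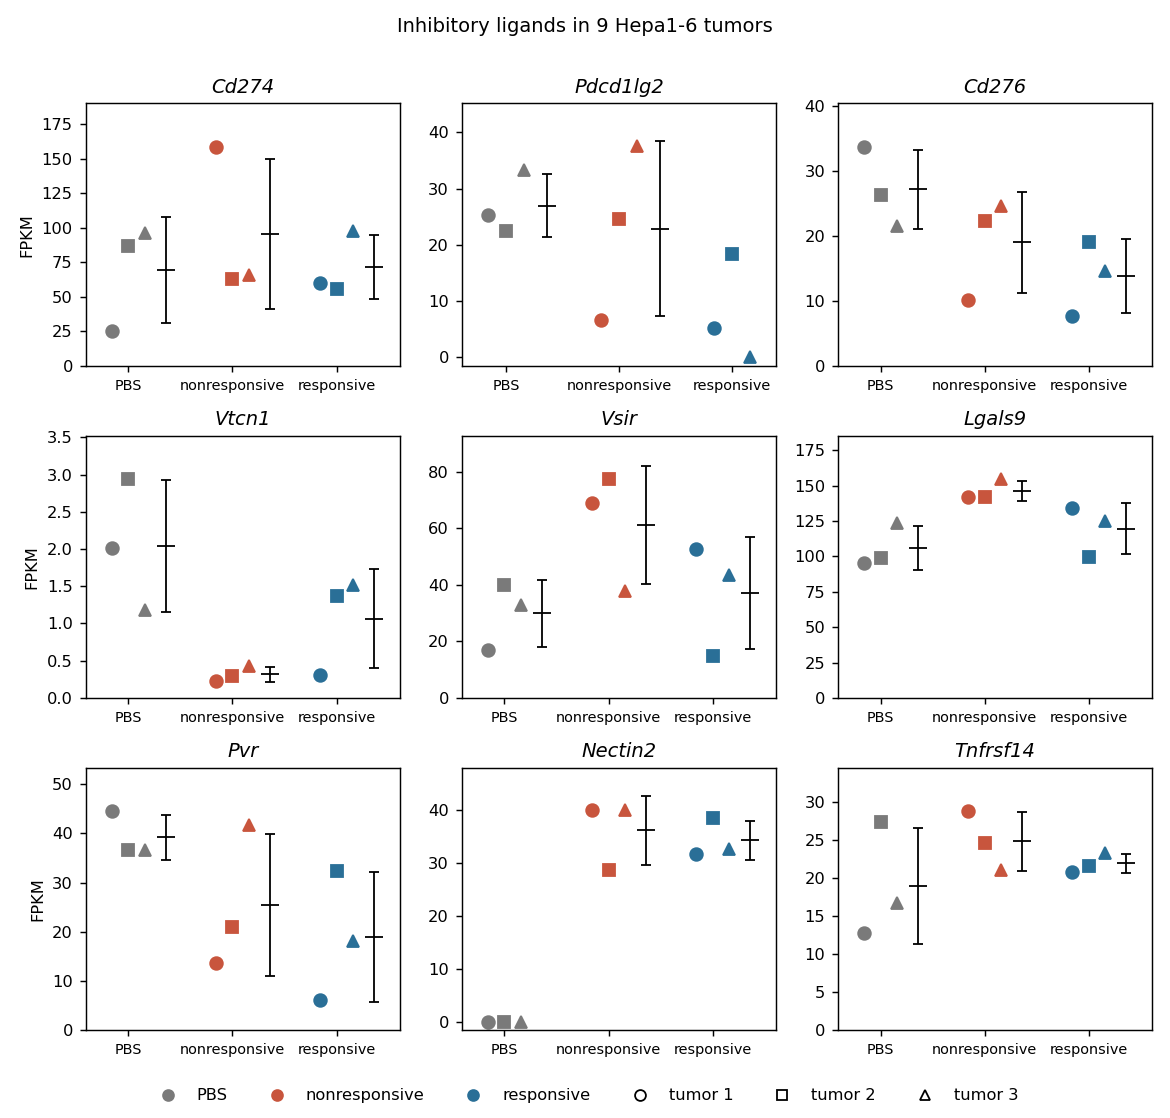
FPKM of the 9 inhibitory ligands in each tumor (linear axes, 1 panel per gene), with points for the 3 PBS, 3 nonresponsive and 3 responsive tumors shaped by tumor number, and bars for the mean ± SD of each group, left out where a tumor is listed at 0. Cd274 of the 3 groups overlaps, the lowest point is PBS tumor 1 at 25.3 FPKM and the highest nonresponsive tumor 1 at 158 FPKM, and Nectin2 is listed at 0 in the 3 PBS tumors.

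Cd274 did not separate the groups. It was at 25.3, 87.1 and 96.0 FPKM in PBS tumors 1 to 3, at 158, 62.9 and 65.5 FPKM in nonresponsive tumors and at 60.1, 56.0 and 97.9 FPKM in responsive tumors. The low value of PBS tumor 1 and the high value of nonresponsive tumor 1 gave the spread, and the groups overlapped in all 3 comparisons. Means were 69.5 ± 38.5, 95.6 ± 54.4 and 71.3 ± 23.1 FPKM (SD, n = 3 each). Differences are given as fold changes of log2(FPKM + 1), which understate changes of low genes. Responsive tumors differed from nonresponsive tumors by −0.32 (95% interval −1.41 to 0.76, limma adjusted p = 0.974, exact permutation p = 0.5). Against PBS tumors the difference was 0.20 for responsive (−1.20 to 1.61, limma adjusted p = 0.837) and 0.53 for nonresponsive tumors (−1.04 to 2.10, limma adjusted p = 0.738). Each interval includes a change of 1 on the log2 scale in at least 1 direction, so a difference of that size could not be told from none with 3 tumors a group. The direction rested on single tumors: responsive against nonresponsive was 0.10 without nonresponsive tumor 1, and without PBS tumor 1 the differences against PBS were −0.40 in responsive and −0.07 in nonresponsive tumors. Without responsive tumor 3, whose Cd274 entry also covers its neighbor Ric1, the difference from PBS was −0.04. Summing Cd274 and Ric1 in every tumor gave −0.40 between responsive and nonresponsive tumors, 0.08 between responsive and PBS and 0.48 between nonresponsive and PBS tumors.

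Pdcd1lg2, the neighbor of Cd274 and the other ligand of PD-1, was at 25.3, 22.4 and 33.3 FPKM in PBS, 6.57, 24.5 and 37.6 FPKM in nonresponsive and 5.20, 18.5 and 0 FPKM in responsive tumors. Responsive tumors lay below all PBS tumors, and the nonresponsive and responsive groups overlapped. The 0 of responsive tumor 3 falls within the merged entry of Cd274 and Ric1, so it is a listed value and not a measured absence. The difference between responsive and PBS tumors was −2.48 (95% interval −5.12 to 0.15, limma adjusted p = 0.295), and −1.33 without responsive tumor 3. Between responsive and nonresponsive tumors it was −1.98 (−4.90 to 0.94, limma adjusted p = 0.965), and −0.83 without responsive tumor 3.

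In Cd276 and Pvr, no responsive tumor reached the level of any PBS tumor, and neither difference passed adjustment. Cd276, a B7 family member common on carcinoma cells, was at 33.7, 26.2 and 21.6 FPKM in PBS, 10.2, 22.3 and 24.7 FPKM in nonresponsive and 7.69, 19.1 and 14.7 FPKM in responsive tumors. Every responsive tumor lay below every PBS tumor, and the nonresponsive tumors overlapped with both. The difference between responsive and PBS tumors was −0.99 (95% interval −1.88 to −0.10, limma adjusted p = 0.283), with an unadjusted p under 0.05. Without responsive tumor 1 it was −0.65. Responsive against nonresponsive was −0.43 (−1.55 to 0.69, limma adjusted p = 0.973).

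Pvr, the ligand shared by TIGIT, CD96 and CD226, was at 44.5, 36.5 and 36.6 FPKM in PBS, 13.7, 21.0 and 41.6 FPKM in nonresponsive and 6.03, 32.4 and 18.1 FPKM in responsive tumors. The responsive tumors again lay below all PBS tumors, while nonresponsive tumors ranged across both. Responsive against PBS was −1.28 (95% interval −2.70 to 0.14, limma adjusted p = 0.301), and −0.67 without responsive tumor 1. Responsive against nonresponsive was −0.54 (−2.19 to 1.11, limma adjusted p = 0.973), and 0.07 without responsive tumor 1. Pvr, Cd276 and Pdcd1lg2 had their lowest or next to lowest values of their group in the tumors low in Krt19. Over the 9 tumors Pearson's r with Krt19 was 0.86 for Cd276, 0.84 for Pvr and 0.49 for Pdcd1lg2, given as a description since Krt19 was picked after its values were seen. The part of this in the differences was not tested.

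Lgals9 and Vsir had their highest group means in nonresponsive tumors, 146 ± 7.28 and 61.3 ± 20.9 FPKM (SD, n = 3). So did Cd274 (95.6 FPKM), Tnfrsf14 (24.8 FPKM) and Nectin2 (36.2 FPKM, with the PBS tumors listed at 0). Lgals9 was at 95.2, 98.6 and 124 FPKM in PBS, 142, 142 and 155 FPKM in nonresponsive and 134, 99.5 and 125 FPKM in responsive tumors. All nonresponsive tumors lay above all others. Nonresponsive against PBS was 0.47 (95% interval 0.00 to 0.94, limma adjusted p = 0.718), with an unadjusted p under 0.05, and responsive against nonresponsive was −0.30 (−0.80 to 0.21, limma adjusted p = 0.973).

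Vsir, the ligand and receptor of myeloid cells, was at 16.9, 39.9 and 32.9 FPKM in PBS, 68.8, 77.3 and 37.7 FPKM in nonresponsive and 52.8, 15.0 and 43.6 FPKM in responsive tumors. Nonresponsive tumors 1 and 2, whose entries also name Gm17455, were highest, and each pair of groups overlapped. Nonresponsive against PBS was 1.03 (95% interval −0.02 to 2.08, limma adjusted p = 0.718), and responsive against nonresponsive −0.82 (−2.15 to 0.51, limma adjusted p = 0.973).

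Tnfrsf14, the ligand of BTLA and CD160, was at 12.8, 27.4 and 16.6 FPKM in PBS, 28.7, 24.6 and 21.1 FPKM in nonresponsive and 20.8, 21.6 and 23.3 FPKM in responsive tumors. All groups overlapped, with the responsive tumors closest together, and responsive against nonresponsive was −0.16 (95% interval −0.63 to 0.30, limma adjusted p = 0.973).

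Vtcn1, a B7 family member of epithelial tumors, was at 2.01, 2.94 and 1.18 FPKM in PBS, 0.224, 0.296 and 0.427 FPKM in nonresponsive and 0.308, 1.38 and 1.51 FPKM in responsive tumors. Nonresponsive tumors lay below all PBS tumors, with a difference of −1.17 (95% interval −1.85 to −0.49, limma adjusted p = 0.718) and an unadjusted p under 0.05. In this comparison only the PBS tumors reached 1 FPKM, the level needed for testing. Vtcn1 was thus tested only through the group where it is high, and its p and lack of overlap lend no support. Vtcn1 was under the level tested between responsive and nonresponsive tumors because fewer than 3 of these 6 tumors reached 1 FPKM.

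Nectin2, whose protein binds PVRIG, TIGIT and CD226, was listed at 0 in PBS tumors 1 to 3. It was at 40.0, 28.6 and 39.9 FPKM in nonresponsive and 31.6, 38.4 and 32.6 FPKM in responsive tumors, which overlapped and differed by −0.07 (95% interval −0.59 to 0.46, limma adjusted p = 0.989). The authors' table for whole groups gave Nectin2 at 30.9 FPKM in PBS and 32.6 FPKM in nonresponsive tumors, so the zeros of the PBS tumors are not repeated there. Nectin2 was 1 of 6 genes at 10 FPKM or more in at least 5 tumors and at 0 in all PBS tumors. No fold against PBS is given for it, and its call in those comparisons (limma adjusted p = 0.000372 in responsive and 0.00158 in nonresponsive tumors) comes from these listed zeros.

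**Figure D2:**
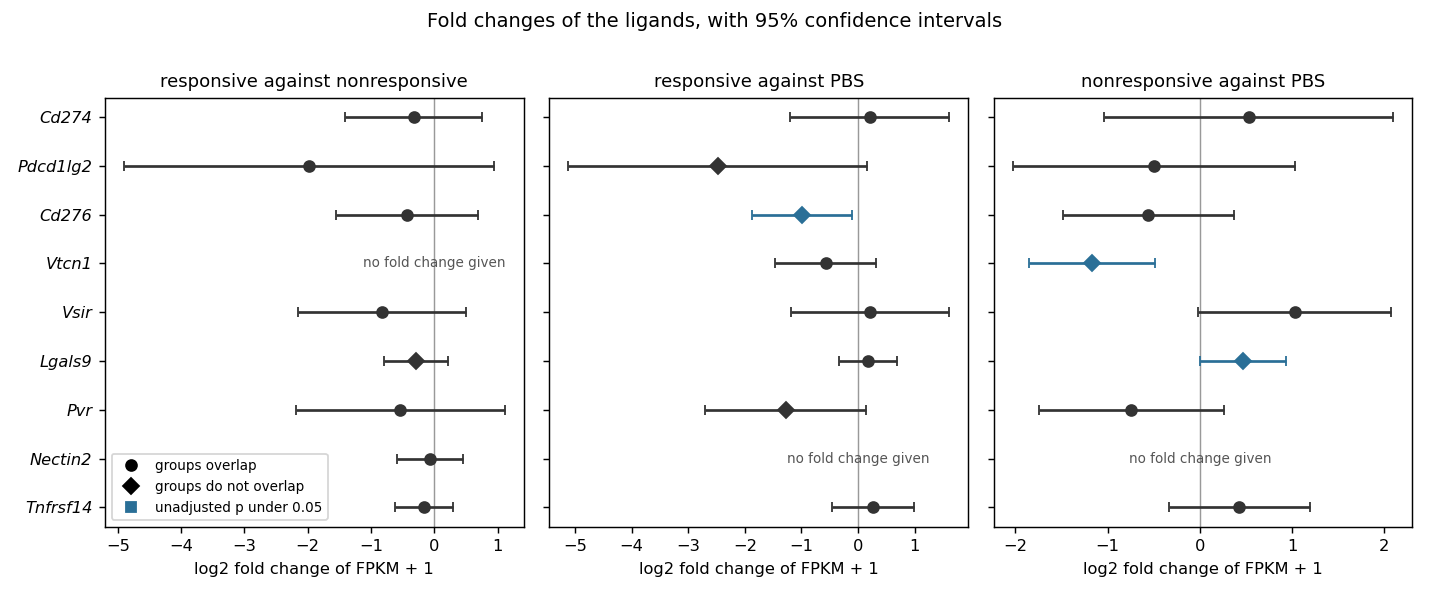
Difference of log2(FPKM + 1) of each ligand in 3 comparisons of groups of 3 tumors (points, diamonds where the groups do not overlap and blue where unadjusted limma p is under 0.05), with 95% intervals (bars) and a line at 0. Cd274 spans 0 in each panel, and Nectin2 is shown only between responsive and nonresponsive tumors because it is listed at 0 in the PBS tumors.

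Between responsive and nonresponsive tumors 0 of the 8 members tested had limma p under 0.05, beside 5.49% of 13832 genes, and 0 had an adjusted p under 0.05, beside 0.116%. Groups did not overlap for 1 member, Lgals9, beside 10.5% of genes. The median difference was −0.38 over the 8 members and −0.066 over all genes, and all 8 were below 0, as were 57.5% of all genes. With nonresponsive tumor 1 and responsive tumor 1 both left out, a choice made after seeing the data, Cd274 was at 0.20, Nectin2 at 0.06, Cd276 at −0.46 and Pvr at −0.28.

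Between responsive and PBS tumors 1 of the 8 members other than Nectin2, Cd276, had limma p under 0.05, beside 17.2% of 13841 genes, and 0 had an adjusted p under 0.05, beside 0.231%. Groups did not overlap for 3 members, Pdcd1lg2, Cd276 and Pvr, beside 28.0% of genes. The median of the 8 was −0.20, against −0.11 over all genes. Without responsive tumor 2, Cd276, Pvr and Pdcd1lg2 had limma p under 0.05, with differences of −1.25, −1.79 and −3.47, and without responsive tumor 1 or 3 none of the 8 had. Over all genes, those at limma p under 0.05 numbered from 1005 to 3875 with 1 tumor left out, so these counts are no result about the members. The −3.47 of Pdcd1lg2 includes the listed 0 of responsive tumor 3.

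Between nonresponsive and PBS tumors 2 of the 8 members other than Nectin2, Lgals9 and Vtcn1, had limma p under 0.05, beside 3.22% of 13793 genes, and 0 had an adjusted p under 0.05, beside 0.0798%. Groups did not overlap for the same 2 members, beside 8.21% of genes. Vtcn1 was tested here only because the PBS tumors reached 1 FPKM, so its part in both counts lends no support. The median of the 8 was −0.04 and that of all genes −0.057. The last 2 comparisons share the PBS tumors and are not independent of each other.

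Levels of marker genes of other cells are given beside the ligands. The level of a list is its mean log2(FPKM + 1). Hepatocyte markers were at 3.79, 6.46 and 6.85 in PBS, 7.98, 6.99 and 6.25 in nonresponsive tumors and 8.95, 7.89 and 8.26 in responsive ones. Nonresponsive tumor 1 and responsive tumor 1, the tumors low in Krt19, were thus the highest of their groups in this list. Of the 18 hepatocyte markers 14 were higher in responsive than in PBS tumors at limma p under 0.05, beside 17.2% of all genes in either direction, and 0 at an adjusted p under 0.05. In responsive against nonresponsive tumors 7 of the 18 were higher at limma p under 0.05, beside 5.49% of all genes in either direction, and 0 at an adjusted p under 0.05. Serpina1a and Serpina1b share an entry in 8 of the 9 tumors and are not separate measurements there. Macrophage markers were at 5.11, 6.30 and 6.16 in PBS, 7.18, 7.24 and 6.09 in nonresponsive tumors and 6.99, 5.81 and 6.46 in responsive ones. Of the 14 macrophage markers 3 were higher in nonresponsive than in PBS tumors at limma p under 0.05, beside 3.22% of all genes. They were Fcgr1, C1qb and C1qc, the last 2 with a single merged entry in nonresponsive tumors 1 and 2 alone, and with these neighbors joined in every tumor neither had limma p under 0.05. T cell markers were at 2.86, 4.56 and 3.62 in PBS, 4.03, 4.0 and 3.82 in nonresponsive tumors and 4.19, 4.46 and 4.72 in responsive ones, and in responsive against nonresponsive tumors 6 of 14 had a positive difference at limma p under 0.05, beside 5.49% of all genes, where Trbc1 and Trbc2 are 1 entry in every tumor and so 1 measurement. PBS tumor 1, the lowest in Cd274, was also the lowest in these 3 lists.

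Over the 9 tumors, 7 detected members were set against 4 lists, 28 pairs in all, with exact permutation tests and adjustment over the pairs. Vsir followed the macrophage markers, with Pearson's r 0.93 (adjusted exact p = 0.00525) and Spearman's rho 0.97 (adjusted exact p = 0.00329). Without PBS tumor 1 and nonresponsive tumor 2, which lay farthest from the median, r was 0.88 (adjusted exact p = 0.0778), and after centring each group on its mean it was 0.94. With C1qb and C1qc left out of the list, a choice made after seeing the data, r was 0.93 (adjusted exact p = 0.00772). With nonresponsive tumor 1 and responsive tumor 1 left out, r was 0.91 for Vsir (adjusted exact p = 0.0796) and −0.94 for Cd276 with the hepatocyte markers (adjusted exact p = 0.05), so neither stayed under 0.05. Cd276 ran against the hepatocyte markers, with r −0.86 (adjusted exact p = 0.0281) and rho −0.95 (adjusted exact p = 0.00329), r −0.83 without PBS tumor 1 and responsive tumor 1 (adjusted exact p = 0.156) and −0.73 after centring. Pvr did so by rank, with rho −0.95 (adjusted exact p = 0.00329) and r −0.76 (adjusted exact p = 0.102). Tnfrsf14 had r 0.79 (adjusted exact p = 0.102) and rho 0.60 (adjusted exact p = 0.339) with the T cell markers. It had r 0.74 with the macrophage markers (adjusted exact p = 0.102) and 0.63 with the hepatocyte markers (adjusted exact p = 0.187). Cd274 had r 0.66 with the macrophage, 0.63 with the hepatocyte and 0.57 with the T cell markers (adjusted exact p = 0.150, 0.187 and 0.246). Without the 2 tumors farthest from the median of each list, these r values were 0.55, 0.35 and −0.23. After centring each group on its mean they were 0.62, 0.87 and 0.70. Cd274 and the interferon-gamma target genes had r 0.38 (adjusted exact p = 0.445) and r −0.38 without PBS tumor 1 and responsive tumor 1, the farthest from the median. That list holds Psmb8, which is listed at 0 in PBS tumor 2 and shares an entry with Tap1 in responsive tumors 2 and 3. Gbp3 shares an entry with Gbp2 in nonresponsive tumor 1, and Igtp and Irgm2 are 1 entry in every tumor. Their part in these r values was not tested.

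**Figure D3:**
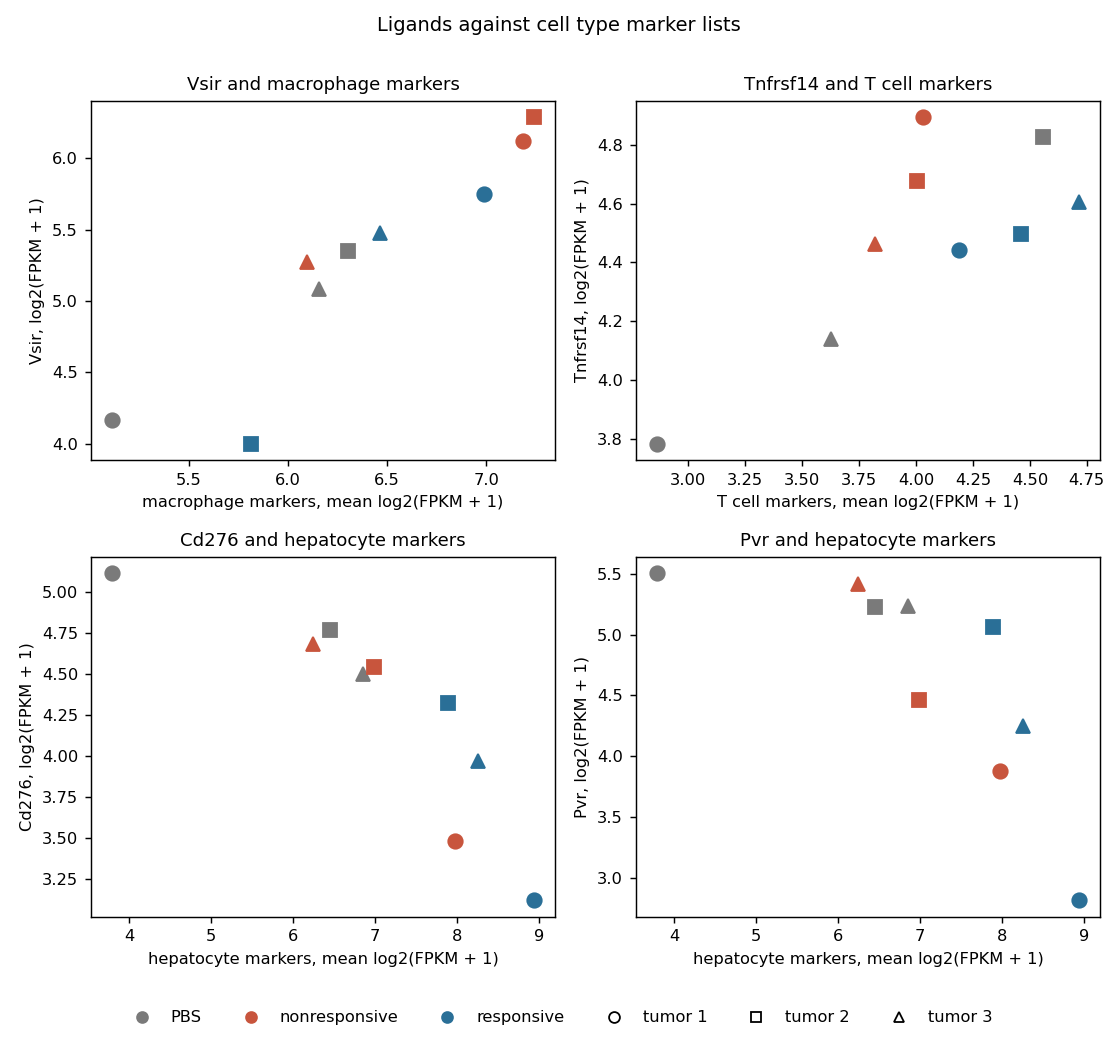
Log2(FPKM + 1) of a ligand against the mean log2(FPKM + 1) of a list of genes in the 9 tumors (points, colored by group and shaped by tumor number), for Vsir and macrophage markers, Tnfrsf14 and T cell markers, Cd276 and hepatocyte markers, and Pvr and hepatocyte markers. Vsir is higher where the macrophage markers are (r 0.93), Cd276 is lower where the hepatocyte markers are higher (r −0.86), and r is −0.76 for Pvr and 0.79 for Tnfrsf14.

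Among the members themselves, as a description over the same 9 tumors, Cd276 and Pvr were the most alike (Pearson's r 0.94), Vsir and Lgals9 had r 0.75 and Cd274 and Tnfrsf14 r 0.74, while Vtcn1 and Lgals9 had r −0.87. Of 10782 genes at 1 FPKM or more in every tumor, the 5 most like Cd274 were Nos2 (r 0.98), Plcb2 (r 0.97), Tgm1 (r 0.94), Stk40 (r 0.93) and Per1 (r 0.93). Nos2, the inducible nitric oxide synthase of activated macrophages, was at 5.59, 55.0 and 55.4 FPKM in PBS, 205, 38.5 and 31.7 FPKM in nonresponsive and 28.4, 25.3 and 48.1 FPKM in responsive tumors. Like Cd274 it was lowest in PBS tumor 1 and highest in nonresponsive tumor 1.

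**Figure D4:**
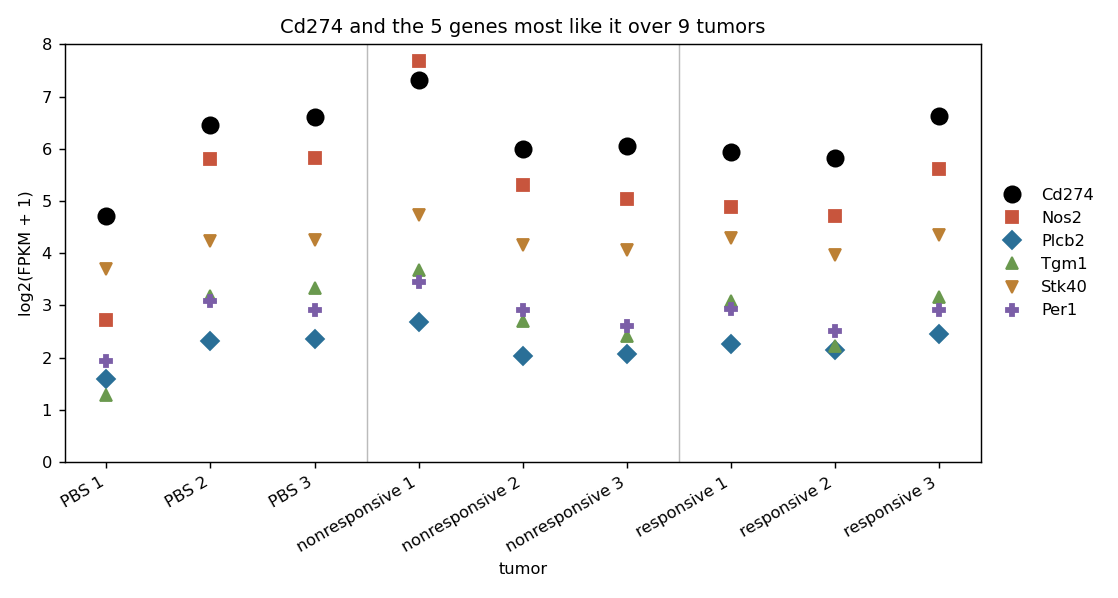
Log2(FPKM + 1) of Cd274 and of the 5 genes with the highest Pearson correlation with it (0.93 to 0.98), by tumor, with a vertical line between groups. All 6 genes are lowest in PBS tumor 1 and highest in nonresponsive tumor 1, and these genes were chosen for this likeness.

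Of the 16 receptors and binding partners listed, 15 were tested. Pdcd1, which encodes PD-1, was at 1.44, 8.65 and 3.18 FPKM in PBS, 4.97, 4.95 and 3.75 FPKM in nonresponsive and 8.18, 7.39 and 7.23 FPKM in responsive tumors. The responsive tumors lay above all nonresponsive ones, and the PBS tumors ranged across both. The difference between them was 0.64 (95% interval 0.17 to 1.10, limma adjusted p = 0.886), with an unadjusted p under 0.05. Igsf11, a binding partner of VISTA, was the other of 2 receptors or partners higher at limma p under 0.05 in this comparison, with a difference of 0.71 (limma adjusted p = 0.886), and 0 were lower, beside 5.49% of all genes in either direction.

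Tigit, the inhibitory receptor of CD155 and CD112, was at 155, 77.1 and 145 FPKM in PBS, 6.16, 68.1 and 165 FPKM in nonresponsive and 9.21, 67.9 and 29.9 FPKM in responsive tumors. Its lowest values were in the tumors low in Krt19 and not in PBS tumor 1, the tumor lowest in T cell markers, and its entry also names predicted genes in PBS tumors 1 and 3. Responsive tumors lay below all PBS tumors, with a difference of −2.12 (95% interval −3.94 to −0.30, limma adjusted p = 0.281). Cd44, a partner of galectin-9, was also lower in responsive than in PBS tumors, with a difference of −0.82 (limma adjusted p = 0.281). Nectin1 and Nectin3, adhesion partners of the nectin family, were higher by 1.14 (limma adjusted p = 0.281) and 0.79 (limma adjusted p = 0.281). These 4 were the only ones of the 15 at limma p under 0.05 between responsive and PBS tumors, beside 17.2% of all genes. Against PBS, Cd44 was lower and Nectin3 higher in nonresponsive tumors too, with differences of −0.47 (limma adjusted p = 0.718) and 0.57 (limma adjusted p = 0.718). Of the 15, 1 was higher and 1 lower there at limma p under 0.05, beside 3.22% of all genes in either direction.

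The other receptors listed were low. Over the 9 tumors Havcr2 (TIM-3) ranged from 3.52 to 11.9 FPKM, Btla from 1.35 to 8.26, Cd226 from 1.31 to 4.22, Cd96 from 1.12 to 3.42 and Pvrig from 0.946 to 3.90 FPKM. Cd160, which binds HVEM, was listed at 0 in all 9 tumors. The highest genes of the list were Cd44, Tigit and Selplg, a partner of VISTA, at 113, 80.5 and 63.6 FPKM on average.

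Of 14 further inhibitory ligands and mediators, 3 were higher in responsive than in PBS tumors at limma p under 0.05 and 0 lower, which is near the 17.2% of all genes and is no result about the list. Fgl1, a ligand of LAG-3 secreted by hepatocytes, was at 18.2, 89.2 and 177 FPKM in PBS and 380, 210 and 332 FPKM in responsive tumors, the last from an entry shared with Mtus1, a difference of 2.15 (limma adjusted p = 0.288). Clec4g, a lectin of liver sinusoidal endothelium, differed by 2.05 (limma adjusted p = 0.281) and Ceacam1, a ligand of TIM-3 whose entry is shared with its relative Ceacam2 in PBS tumor 3 and responsive tumors 2 and 3, by 1.72 (limma adjusted p = 0.281). With neighbors joined in every tumor, Fgl1 differed by 1.84 and Ceacam1 by 1.47. The hepatocyte markers, which include none of these 3, had a median difference of 2.83 in the same comparison, and their part in these values was not tested. No gene of this list had limma p under 0.05 in either other comparison. The share of all genes was 5.49% between responsive and nonresponsive and 3.22% between nonresponsive and PBS tumors.

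Of 11 other B7 family and costimulatory ligands, 7 were tested between responsive and nonresponsive tumors. Of these 0 had limma p under 0.05, beside 5.49% of all genes. Cd80, which also binds PD-L1, was at 0, 9.97 and 10.9 FPKM in PBS, 15.4, 8.22 and 4.58 FPKM in nonresponsive and 19.3, 5.33 and 10.9 FPKM in responsive tumors. Cd86 ranged from 5.73 to 20.7 FPKM, and its groups overlapped. Tnfsf9, the ligand of the costimulatory receptor 4-1BB, was lower in nonresponsive than in PBS tumors, with a difference of −0.74 (limma adjusted p = 0.718). Of the 6 ligands of this list tested there, 1 was lower and 0 higher at limma p under 0.05, beside 3.22% of all genes.

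Genes upstream of PD-L1 were compared by the interferon-gamma pathway, its targets, and proteins that control the stability of PD-L1. Ifng, the cytokine itself, whose entry also names a predicted gene in all 9 tumors, was at 1.44, 7.56 and 3.39 FPKM in PBS, 4.62, 5.50 and 6.43 FPKM in nonresponsive and 1.80, 6.10 and 6.31 FPKM in responsive tumors. It overlapped between all groups, and its lowest values were in PBS tumor 1 and responsive tumor 1. Of the 12 pathway genes 0 had limma p under 0.05 between responsive and nonresponsive tumors, beside 5.49% of all genes. Against PBS, 1 of the 12 was lower and 1 higher in responsive tumors at limma p under 0.05. This is near the 17.2% of all genes and is no result about the list. Jak2, the kinase of the interferon-gamma receptor, was lower, with a difference of −0.69 (limma adjusted p = 0.281). Its lowest values were in the tumors low in Krt19, 40.4 FPKM in nonresponsive tumor 1 and 30.2 FPKM in responsive tumor 1. Stat2, whose entry also names the liver gene Apof in every tumor, was higher by 1.85 (limma adjusted p = 0.281). Irf1, a transcription factor of this pathway, ranged from 81.2 to 226 FPKM, and its groups overlapped.

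Of 16 interferon-gamma target genes 0 had limma p under 0.05 in any of the 3 comparisons. The share of all genes was 5.49% between responsive and nonresponsive, 17.2% between responsive and PBS and 3.22% between nonresponsive and PBS tumors. Medians of the list in the same order were −0.44, −0.13 and 0.29, with its merged entries and the listed 0 of Psmb8 left in. Cmtm6, which keeps PD-L1 at the cell surface, ranged from 37.5 to 59.5 FPKM and differed by −0.15 between responsive and nonresponsive tumors (limma adjusted p = 0.974). Of the 14 genes of PD-L1 stability and trafficking, 1 had limma p under 0.05 between responsive and PBS tumors, beside 17.2% of all genes. This was Btrc, a ubiquitin ligase adaptor for PD-L1, which was lower with a difference of −0.68 (limma adjusted p = 0.283), and of −0.57 in nonresponsive tumors (limma adjusted p = 0.718). Between nonresponsive and PBS tumors 1 of the 14 genes was lower and 0 higher at limma p under 0.05, beside 3.22% of all genes.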

How the data were processed

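The 9 tumors fall into 3 groups named by the sample labels. Per the labels, RNA was extracted with Trizol and made into TruSeq libraries. The submitters' processing notes name TopHat2 2.1.1, Bowtie2 2.2.4 and the build mm8. Positions in the tables differ from those of RefSeq GRCm38 and their build could not be settled, so none is printed. The authors deposited, per tumor, a Cufflinks table with 1 FPKM value per assembled entry, and 1 Cuffdiff table of whole groups, whose fold changes, p-values and q-values were not used. Depth is unknown.

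Entries were split on commas, and the FPKM of a gene was summed over the entries naming it. For each comparison, limma 3.58.1 (lmFit, eBayes with trend; R 4.3.3) was run on the log2(FPKM + 1) of its 6 tumors. A gene was tested where 3 or more of these reached 1 FPKM, with Benjamini-Hochberg adjustment over all of them. Exact permutation tests were two-sided, and for 3 against 3 tumors cannot give p below 0.1. Python 3.11.15, pandas 2.3.3, numpy 2.4.6, scipy 1.17.1 and matplotlib 3.10.9 did the rest. The limma steps were tested on simulated data.

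Members and lists were chosen with earlier results of these data known. All 9 members are named. Of the other lists, the rule names genes at unadjusted p under 0.05 whose groups do not overlap, up to 3 in each direction, the 3 of highest mean FPKM, a list of receptors and PD-L1 regulators, and the 5 genes most like Cd274. Other genes (Krt19, Afp, Ido1, Ric1, C1qb, C1qc, Trbc1, Trbc2 and genes sharing an entry) were chosen after their values were seen, and for some lists fewer genes are given. Alternatives were a pseudocount of 0.1, no filter, a filter at 5 FPKM, upper-quartile scaling, a single fit of the 9 tumors, a block on replicate number, neighboring genes joined where merged, eBayes without trend, each tumor left out and, added after seeing the data, 2 tumors left out together and the macrophage list without C1qb and C1qc.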

Additional observations from a re-analysis of the deposited data

How the results depend on the processing

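The direction of Cd274 between groups rested on single tumors, and no other alternative reversed it. Responsive against nonresponsive ranged from −0.57 to 0.10 with 1 tumor left out and was 0.20 without nonresponsive tumor 1 and responsive tumor 1, an alternative chosen after seeing the data. Responsive against PBS ranged from −0.40 to 0.54, being −0.40 without PBS tumor 1 and −0.04 without responsive tumor 3, and nonresponsive against PBS from −0.075 to 0.87, being −0.075 without PBS tumor 1. With 1 tumor left out, Pvr between responsive and nonresponsive tumors ranged from −1.05 to 0.075 (0.075 without responsive tumor 1) and Nectin2 from −0.22 to 0.01 (0.01 without nonresponsive tumor 1, 0.0094 without nonresponsive tumor 3), and without both tumors above Nectin2 was at 0.063. Vsir between responsive and PBS ranged from −0.14 to 0.75 (−0.14 without PBS tumor 1, −0.13 without responsive tumor 1) and Pdcd1lg2 between nonresponsive and PBS from −0.99 to 0.19 (0.19 without nonresponsive tumor 1). The correlation of Cd274 with interferon-gamma target genes was −0.38, and that with T cell markers −0.23, without the 2 tumors farthest from the median of each list. The causes were not tested.

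Genes with an adjusted p under 0.05 (limma) between responsive and nonresponsive tumors were 16. They were 10 without a filter, 8 with a filter at 5 FPKM, 8 with joined neighbors, 0 without both tumors above, and 0 to 32 with 1 tumor left out. Between responsive and PBS the 32 genes became 16 with 9 tumors in 1 fit, 19 with joined neighbors and 7 to 49 with 1 tumor left out. Between nonresponsive and PBS the 11 genes became 5 without a filter, 6 with 9 tumors in 1 fit, 5 with joined neighbors and 2 to 30 with 1 tumor left out. Genes at unadjusted p under 0.05 numbered 310 to 1425, 1005 to 3875 and 216 to 1859 in these comparisons with 1 tumor left out, and in the last 810 without a filter and 270 with a filter at 5 FPKM. Of the members, Nectin2 included, 1 was called at adjusted p against PBS in either group, and 0 to 1 with 1 tumor left out, because Nectin2 is then under the filter when a treated tumor is missing. At unadjusted p the counts 0, 2 and 3 became 0 to 1, 0 to 3 and 1 to 3 with 1 tumor left out, and the last became 1 with a filter at 5 FPKM. The 2 correlation pairs at adjusted p under 0.05 became 0 without the 2 farthest tumors and 0 without both tumors above. Vsir with macrophage markers was then at r 0.88 (adjusted exact permutation p = 0.0778) and 0.91 (0.0796), and Cd276 with hepatocyte markers at −0.83 (adjusted exact permutation p = 0.156) and −0.94 (0.05). Apart from the values given here, 128 alternatives of group-level results and 580 of single genes and pairs kept their direction and their side of the threshold, or as counts stayed within 1.5 times. Most single-gene results had an adjusted p above 0.05 to begin with, so keeping that side says little about them.

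With the replicate number as a replicate block, the genes called were 1, 0 and 0 in the same order, the members called against PBS 0 and 0, and the members at unadjusted p between responsive and PBS 1. Nectin2 against PBS then had limma adjusted p = 0.0736 in responsive and 0.169 in nonresponsive tumors. Genes at unadjusted p were 948 between responsive and PBS and 237 between nonresponsive and PBS. Whether the numbers pair the tumors could not be decided, because deviations from the mean of so small a group sum to 0 and are not independent. Deviations from the group mean of tumors with the same number correlated at −0.42, −0.07 and −0.19 between PBS and nonresponsive tumors. The values were −0.33, −0.36 and 0.14 between PBS and responsive tumors, and 0.52, 0.05 and −0.06 between nonresponsive and responsive tumors. The 0.52 belongs to nonresponsive tumor 1 and responsive tumor 1. A pair of nonresponsive and responsive tumors with different numbers reached 0.50.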
